A study of Mus musculus with 24 samples.

Results

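Ifit1, Ifit2, Ifit3, Isg15, Rsad2, Usp18, Mx1, Mx2, Oasl2 and Ifih1 are classical target genes of type I interferon, and they were followed here through neurons given interleukin-1b (IL-1b). The members were all probe sets whose platform annotation names exactly 1 gene and that gene is on this list. That gave 11 probe sets for 9 genes, out of 45037 probe sets (18193 genes with a probe set of their own) without the array's controls. The only probe set for Isg15 is annotated to Isg15 and Gm9706 together, so it was not a member, and its values are given separately. The question was whether IL-1b moves these genes as it moves the guanylate-binding protein (Gbp) genes.

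Total RNA was measured on 24 one-colour Affymetrix mouse arrays, 3 for each of 8 groups. All groups were embryonic cortical neurons of the genotype Il1rap-/-, which lack the gene for AcP (an accessory chain that IL-1 receptors need to signal) and its isoform AcPb. The cells expressed AcP, AcP+AcPb, AcPb (the isoform known from the nervous system) or, as the comparison arm, CD25, a chain of the interleukin-2 receptor. Neurons of each arm were exposed for 4 h to IL-1b (10 ng/ml) or to a control, and the way the receptors were delivered was not given in the sources used here. No label ties the 3 arrays of a group to different animals or cultures. P-values therefore cover the spread between these arrays alone, and that spread may be technical.

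Type I interferons signal through a receptor of the chains Ifnar1 and Ifnar2 and the kinases Jak1 and Tyk2, which lead to a complex of transcription factors that holds Irf9. That complex binds the interferon-stimulated response element (ISRE), a repeated GAAA motif in front of genes such as those followed here. IL-1b acts through its own receptor on MyD88 and NF-kB, and the Gbp genes, which code for large GTPases of cell-autonomous defence, are best known as targets of interferon gamma and Irf1.

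The promoters of both gene groups are shown because their motifs were not used to choose the members. RefSeq windows of 300 bases, from 250 bases before to 50 after a transcript's start, on build GRCm38.p6, were found for 7 of the 10 listed genes and for 5 of 12 Gbp genes. The ISRE core, taken as GAAA, any 2 bases and GAAA again and searched on both strands, lay in windows of 5 of these 7 genes (Ifit1, Ifit3, Isg15, Rsad2 and Ifih1) and of all 5 Gbp genes (Gbp2b, Gbp2, Gbp3, Gbp5 and Gbp7). Over all 32851 windows of this length, 3.44% hold it. The kappaB consensus, the motif of NF-kB, was found in 0 of the 7 genes and in Gbp5, against 4.51% of all windows. The motif TTCNNNGAA, the gamma-activated site, was found for Ifit2 among the 7 and for Gbp5 and Gbp7, against 8.3% of all windows. A match is a description of letters and not evidence of a bound site. Capitals mark the ISRE core on either strand in the windows below, all written 5′ to 3′ in the direction of the gene, for 3 listed genes and for 2 Gbp genes whose levels are set beside them.
Ifit1, chr19:34640639-34640938, plus strand: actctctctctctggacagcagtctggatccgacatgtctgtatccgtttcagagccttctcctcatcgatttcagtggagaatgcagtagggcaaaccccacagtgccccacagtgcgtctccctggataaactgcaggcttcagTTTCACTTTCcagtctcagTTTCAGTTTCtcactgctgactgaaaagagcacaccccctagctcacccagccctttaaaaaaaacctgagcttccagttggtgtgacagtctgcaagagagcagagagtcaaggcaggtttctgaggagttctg
Rsad2, chr12:26456403-26456702, minus strand: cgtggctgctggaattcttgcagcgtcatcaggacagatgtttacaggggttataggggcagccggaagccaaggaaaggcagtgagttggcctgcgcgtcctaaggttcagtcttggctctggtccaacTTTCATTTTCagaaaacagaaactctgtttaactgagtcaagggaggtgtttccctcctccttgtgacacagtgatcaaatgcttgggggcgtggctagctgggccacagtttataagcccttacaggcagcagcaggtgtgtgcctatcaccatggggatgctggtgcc
Ifih1, chr2:62646206-62646505, minus strand: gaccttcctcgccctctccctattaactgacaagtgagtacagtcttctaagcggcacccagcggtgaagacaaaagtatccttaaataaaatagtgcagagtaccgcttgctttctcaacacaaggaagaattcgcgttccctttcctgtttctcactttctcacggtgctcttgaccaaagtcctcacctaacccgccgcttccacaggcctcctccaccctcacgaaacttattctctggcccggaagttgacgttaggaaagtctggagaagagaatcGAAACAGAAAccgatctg
Gbp2, chr3:142620413-142620712, plus strand: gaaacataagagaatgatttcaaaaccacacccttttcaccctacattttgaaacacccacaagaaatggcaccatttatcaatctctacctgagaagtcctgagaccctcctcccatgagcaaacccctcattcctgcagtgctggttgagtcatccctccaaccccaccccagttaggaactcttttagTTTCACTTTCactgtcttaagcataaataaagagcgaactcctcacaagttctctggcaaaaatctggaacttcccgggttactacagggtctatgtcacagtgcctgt
Gbp3, chr3:142559794-142560093, plus strand: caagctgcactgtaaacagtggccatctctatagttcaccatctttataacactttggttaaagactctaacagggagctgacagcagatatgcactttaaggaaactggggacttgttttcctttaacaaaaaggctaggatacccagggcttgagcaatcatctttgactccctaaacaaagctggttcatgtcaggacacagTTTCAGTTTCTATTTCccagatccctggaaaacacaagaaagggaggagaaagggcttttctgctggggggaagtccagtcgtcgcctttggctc
The core begins 104 and 85 bases before the start in Ifit1, 120 before it in Rsad2 and 32 after it in Ifih1. It begins 59 bases before the start in Gbp2, and at 45 and 39 bases in overlapping copies in Gbp3.

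Values are the deposited linear intensities, which come without detection calls, so no gene can be called absent. Array medians lay between 55.0 and 66.4 units, 16.4% to 18.2% of the values of an array were below 0, and arrays of a group correlated with each other at 0.964 to 0.984 on average. The AcP controls were the least alike, at 0.964 to 0.968, and every other array was at 0.9766 or more. AcP control 2 also had the highest median. The 7 neuron markers summed to between 31035 and 37828 units on every array. Markers of other cells were measured as well, with sums of 12189 to 18854 units for 6 astrocyte markers and 2318 to 4174 for 4 progenitor and dividing cell markers. The 7 microglia markers summed to 219 to 903 units: Csf1r, Tyrobp and C1qb passed the filter described next on 5 probe sets, while Aif1 and C1qa were below 0 on average in every group and Cx3cr1 averaged no more than 13.7. A probe set was tested if 3 or more of the 24 arrays exceeded the array's own 40th percentile (29.8 to 37.2 units), which left 30468. In a bulk array a lower value from fewer cells of a type and one from less RNA per cell cannot be told apart.

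Of the 11 member probe sets, 6 of 5 genes passed: those of Ifit2, Usp18, Oasl2 and Ifih1 and 2 of 3 for Rsad2. The brightest was 1 of the Rsad2 probe sets, with a lowest value of 100.3, a median of 158 and a highest value of 205 units over 24 arrays. Ifit2 ran from 31.6 to 119 with a median of 63.2, and Usp18 from 17.1 to 56.8 with a median of 37.8. Of the others, Oasl2 had a median of 40.9, the dimmer tested Rsad2 probe set one of 47.0 and Ifih1 one of 26.3.

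**Figure D1:**
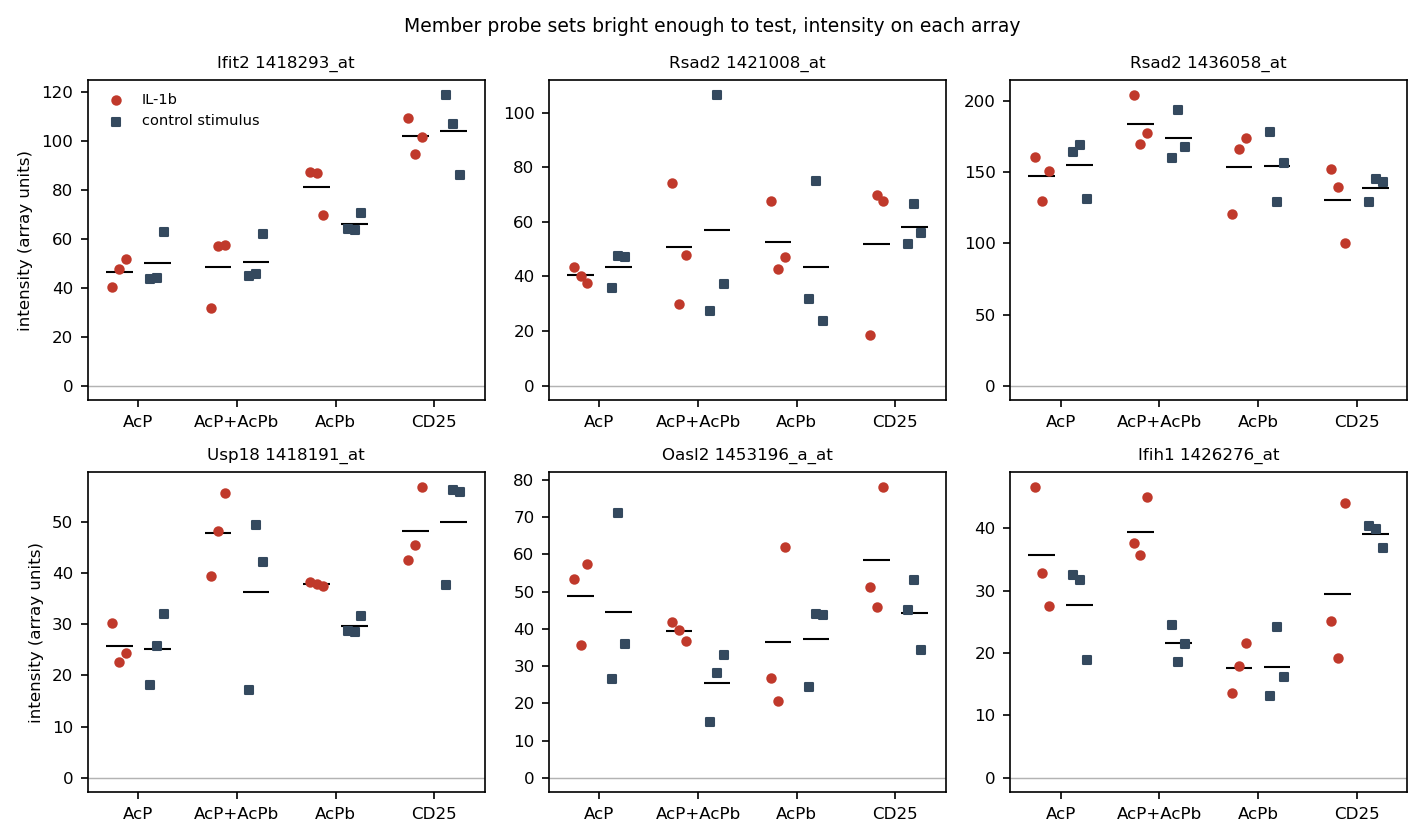
Intensity in array units (y axis) of the 6 tested member probe sets in each receptor arm (x axis), IL-1b arrays as red circles left of the control arrays as dark squares, with a bar at the mean of 3 arrays. Ifit2 in CD25 neurons sits between 86.2 and 119 units, above every array of the other arms except 2 of AcPb with IL-1b, which reach 87.2.

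The members that failed the filter were dim on nearly all arrays, with IL-1b as without. Ifit1, a sensor of viral RNA caps, was below 0 on 21 of 24 arrays and never above 9.58. Mx2, an antiviral dynamin-like GTPase of the cytoplasm in mice, was below 0 on 24 of 24 arrays, and its nuclear relative Mx1 lay between -0.51 and 19.1. Ifit3, a partner of the other Ifit proteins, was below 0 on 8 arrays and reached 36.8 at most, and the untested Rsad2 probe set reached 36.9. The shared probe set of Isg15, a ubiquitin-like protein, and Gm9706 ran from 4.04 to 35.2 with a median of 21.2, and 2 of 24 arrays lay above the 40th percentile.

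**Figure D2:**
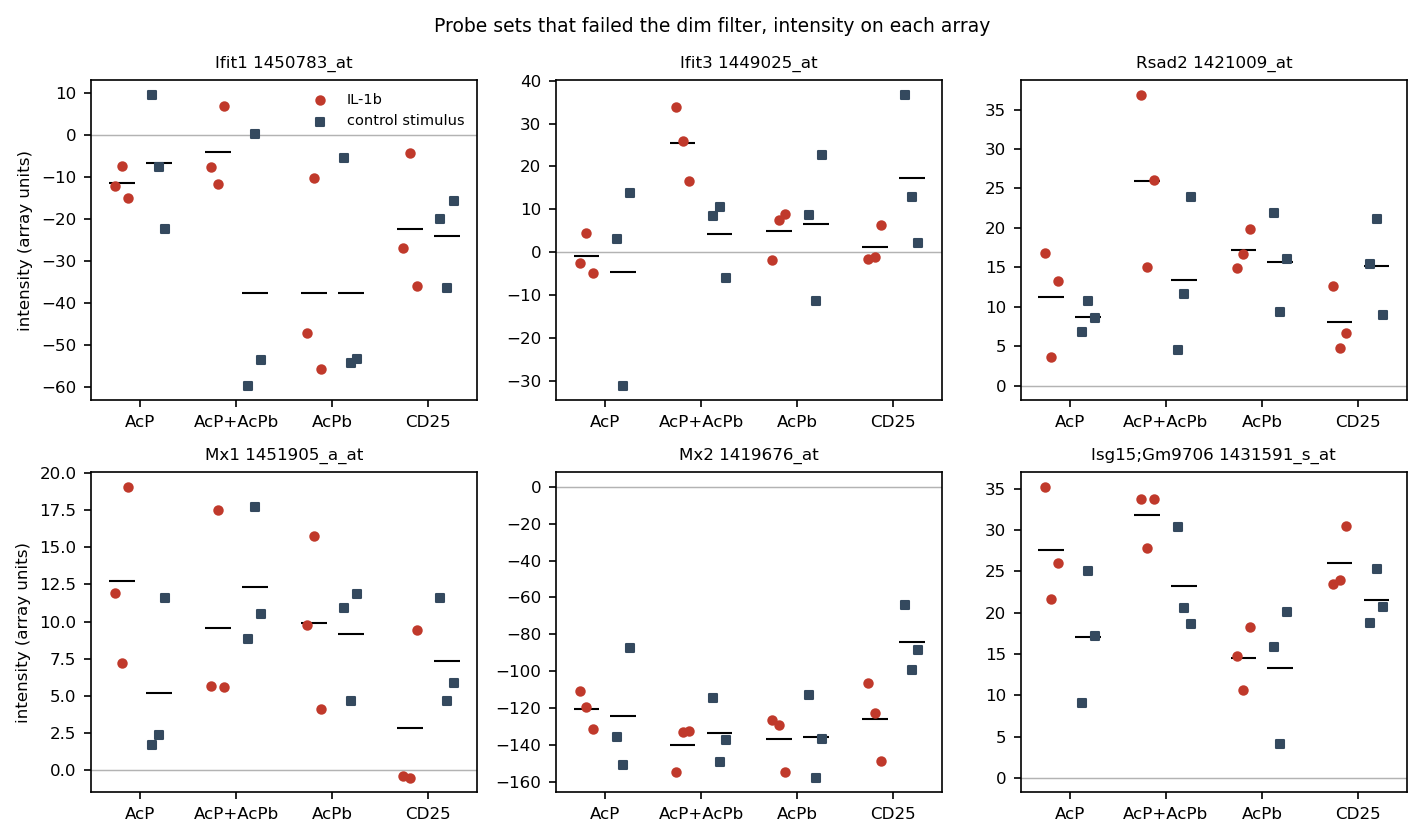
Intensity in array units (y axis) of the 5 member probe sets that were too dim to test and of the probe set shared by Isg15 and Gm9706, drawn by receptor arm (x axis) with IL-1b arrays as red circles left of control arrays as dark squares and a bar at the mean of 3 arrays. All 24 values of Mx2 lie below 0, and no value of the 6 probe sets exceeds 36.9.

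IL-1b raised the Gbp genes in both arms that had AcP, and in no arm was a tested member called. In neurons with AcP, Gbp2, an interferon-inducible GTPase, stood at 335, 416 and 291 units after IL-1b, against 1.35, 7.80 and -14.7 in controls. Gbp3, of the same family, had 196, 211 and 227 units after IL-1b, against 46.9, 40.9 and 69.0 in controls. Ifit2, a partner of Ifit1 in binding viral RNA, had 40.4, 47.7 and 51.7 units after IL-1b, against 43.7, 44.1 and 62.9 in controls. The Gbp arrays were thus far apart by stimulus, and the Ifit2 arrays overlapped. In CD25 neurons Gbp3 averaged 186 ± 55.5 units after IL-1b and 216 ± 61.7 in controls (SD, n = 3 each).

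By limma, 0 of 6 member probe sets were called in AcP neurons at an adjusted p under 0.05, while 0.404% of all 30468 were (123), and 0 of 6 passed at an unadjusted p under 0.05 (8.24% of all). In 0 of 6 were the IL-1b and control arrays without overlap, beside 10.1% of all probe sets. The log2 change was -0.07 ± 0.16 (SE) for Ifit2, with a 95% interval of -0.40 to 0.26. It was -0.06 ± 0.15 for the bright and -0.07 ± 0.38 for the dimmer tested probe set of Rsad2, the antiviral radical enzyme viperin. Usp18, the protease that removes Isg15 and restrains interferon signalling, had 0.03 ± 0.19. Oasl2, of the oligoadenylate synthetase family, had 0.15 ± 0.29, and Ifih1, a cytosolic RNA sensor, 0.24 ± 0.18. Adjusted p-values ran from 0.8 to 0.989 and the median change was -0.02, beside 0.00 over all probe sets. The highest upper bound of the 6 intervals was a log2 change of 0.75, or 1.68-fold on the scale used, log2 of the value plus 16, which understates change in dim genes.

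All 5 tested probe sets of Gbp2, Gbp3 and Gbp7, each of which would have passed the filter on the CD25 arrays alone, were called higher in AcP neurons, where 0.302% of all probe sets were. Their log2 changes ran from 1.58 to 4.26. Both Gbp6 probe sets passed through IL-1b arrays of the AcP and AcP+AcPb arms alone and so had to differ there, and their values are given as a description. The brighter Gbp2 probe set rose by 4.26 ± 0.27 (adjusted p = 2.65e-08 by limma) and the other by 3.51 ± 0.27. Gbp3 rose by 1.75 ± 0.25, to 211 ± 15.8 after IL-1b, against 52.3 ± 14.8 in controls (SD, n = 3 each). Gbp7 rose by 1.58 ± 0.13 on its brighter probe set, and Gbp6 had 2.67 ± 0.24 on the probe set whose control mean of -52.0 makes the change depend on the added 16. The probe sets of Gbp2b and Gbp8 were too dim to test. Gbp transcripts are near alike in sequence, so their probe sets may pick up more than 1 of them. The log2 change of the brighter Gbp2 probe set ran from 2.61 to 5.78 over 20 alternatives. In AcP neurons the other Gbp6 probe set (1.36) lost its call without AcP control 1, without IL-1b array 2, with array weights and with only the 6 arrays compared (adjusted p up to 0.404). The dimmer Gbp7 probe set kept its call in 9 of 18 alternatives and lost it without control 1 or 2 or IL-1b array 1 or 2, among others (adjusted p up to 0.407), and the other 5 Gbp probe sets kept theirs in every alternative run.

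**Figure D3:**
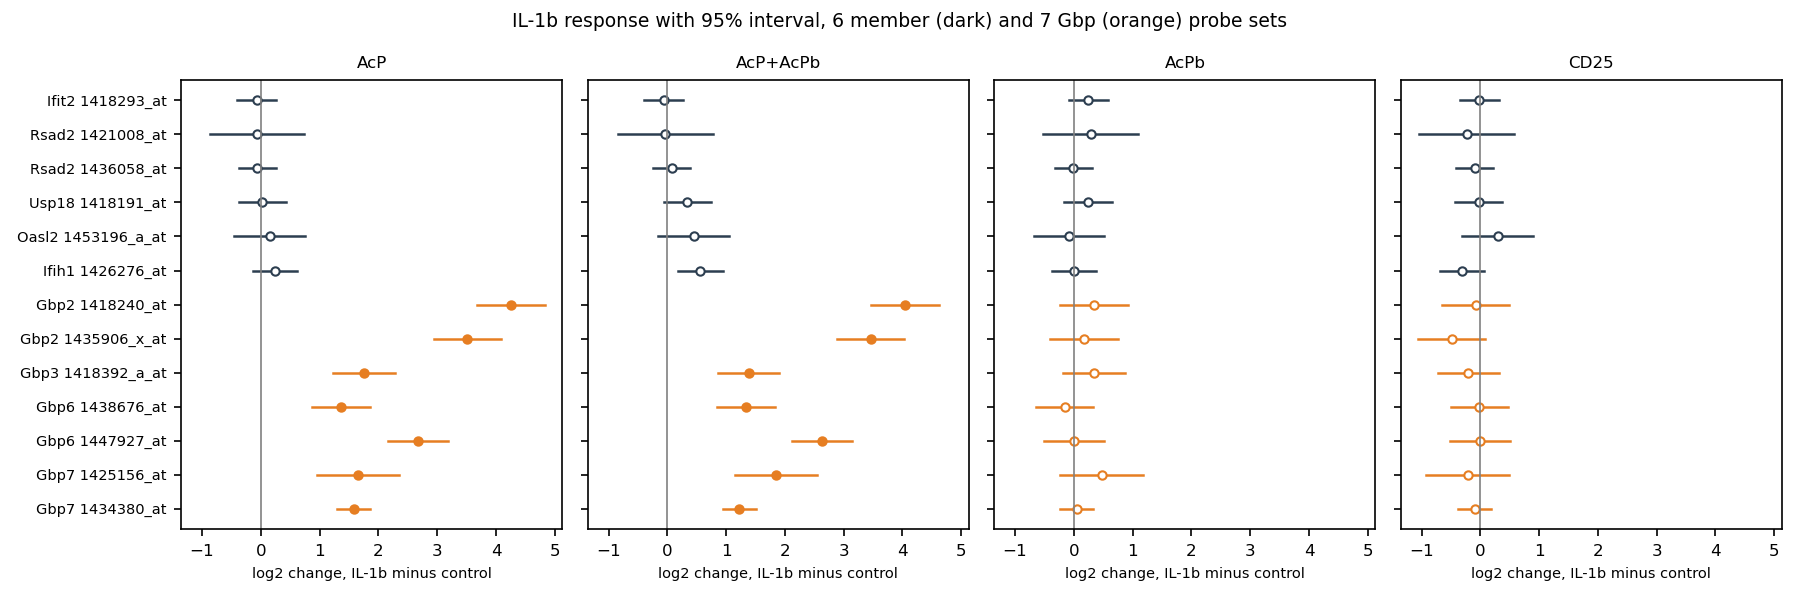
Log2 change after IL-1b (x axis, IL-1b minus control, on log2 of intensity plus 16) for 6 member probe sets (dark, upper rows) and 7 Gbp probe sets (orange, lower rows) in each receptor arm, with bars for the 95% interval and filled points for an adjusted p under 0.05. The Gbp points of the AcP and AcP+AcPb panels lie between 1.22 and 4.26, and no member point exceeds 0.56 in any panel.

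The responses of the brighter Gbp2 probe set and of each member were compared directly, as the Gbp2 change minus the member's change on the same arrays, averaged over AcP and AcP+AcPb neurons. The difference was 4.22 log2 units for Ifit2, 4.20 and 4.15 for Rsad2, 3.97 for Usp18, 3.86 for Oasl2 and 3.75 for Ifih1. Over 17 alternatives the difference ran from 2.47 to 5.31 for Usp18 and from 2.36 to 5.01 for Ifih1. An exact permutation test over the 400 regroupings of stimulus within arms gave the smallest two-sided p it can, 0.005, for each of the 6. Gbp2 was set beside the members with its rise known and its controls lie near 0, so this p restates that rise and the differences are given as a description. Each difference was positive in both arms, at least 4.02 in AcP and 3.49 in AcP+AcPb neurons.

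In neurons with both AcP and AcPb the Gbp genes rose again and Ifih1 stood apart by stimulus without passing the adjusted test. Gbp2 had 225, 296 and 519 units after IL-1b, against 6.33, 8.77 and 0.13 in controls. Ifih1 had 37.6, 35.7 and 44.9 units after IL-1b, against 24.6, 18.5 and 21.5 in controls. These Ifih1 control values all lay below the 40th percentile of their arrays. Oasl2 had 41.9, 39.8 and 36.8 units after IL-1b, against 15.0, 28.3 and 33.1 in controls. The arrays of Ifih1 and Oasl2 did not overlap between stimuli, and those of the other tested members did. Without overlap were thus 2 of 6 member probe sets, both higher, beside 9.72% of all probe sets that lay higher without overlap. Ifit3, too dim to test, had 33.8, 25.9 and 16.6 units after IL-1b, against 8.36, 10.5 and -5.98 in controls, which do not overlap.

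By limma, 0 of 6 members were called in AcP+AcPb neurons, where 0.256% of all probe sets (78) were, and 1 of 6 had an unadjusted p under 0.05 (9.78% of all). That was Ifih1, with a log2 change of 0.56 ± 0.18, a 95% interval of 0.18 to 0.94 and an adjusted p of 0.288. The log2 value was 0.45 ± 0.29 for Oasl2, 0.34 ± 0.19 for Usp18, -0.06 ± 0.16 for Ifit2, and for Rsad2 0.08 ± 0.15 and -0.03 ± 0.38. The median was 0.21, beside 0.01 over all probe sets. The same 5 probe sets of Gbp2, Gbp3 and Gbp7 were called higher here too (0.217% of all), by 1.22 to 4.05. With only the 6 arrays compared 0 of 7 Gbp probe sets were called. Gbp3 kept its call in 14 of 20 alternatives, the same Gbp6 probe set in 13 of 18 and the dimmer Gbp7 probe set in 10 of 18. Each lost it without IL-1b array 2 or 3 and with the array code blocked, Gbp3 also without control 1 or 2, Gbp6 without control 2 and Gbp7 without control 1 or 3 (adjusted p up to 0.785). The array code in the labels was not balanced: m23B held all 3 IL-1b arrays and 1 control, and m22B the other 2 controls. With the code as a block the change was 0.56 for Ifih1 and 0.18 for Oasl2, each at an adjusted p of 1. The adjusted p of Ifih1 ran from 0.216 to 1 over 19 alternatives.

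In neurons with AcPb alone or with CD25, neither the members nor the Gbp genes were called. With AcPb, 0 of 6 members and 0 of 7 Gbp probe sets were called, where 0.00985% of all probe sets (3) were. Of the 7, both Gbp6 probe sets had passed the filter through IL-1b arrays of the AcP and AcP+AcPb arms alone. 1 of them was below 0 on every AcPb and CD25 array, so it could not be called here. Usp18 had 38.3, 37.9 and 37.5 units after IL-1b in AcPb neurons, against 28.6, 28.5 and 31.5 in controls. Its arrays did not overlap, with a log2 change of 0.24 ± 0.19 and an adjusted p of 0.722, and it was 1 of 6 members higher without overlap, beside 10.3% of all probe sets. The log2 values of the other members lay between -0.08 and 0.28, and that of the brighter Gbp2 probe set was 0.35 ± 0.27.

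With CD25, 0 of 6 members were called, as 0% of all probe sets, while 0 of 6 members and 1712 of 30468 probe sets (5.62%) had an unadjusted p under 0.05. Ifih1 had 25.2, 19.2 and 44.1 units after IL-1b, against 40.3, 39.9 and 36.8 in controls, an overlap. Its log2 change was -0.31 ± 0.18, the lowest of the 6, and Oasl2 had the highest at 0.30 ± 0.29. No tested member was without overlap, beside 14% of all probe sets.

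Whether the members' response depended on the receptor arm was tested as the difference between responses. Between AcP and CD25 neurons 0 of 6 were called, where 0.19% of all probe sets were. Between AcP+AcPb and AcP neurons 0 of 6 were (0.00328% of all), and between AcP+AcPb and AcPb neurons 0 of 6 (0.0919% of all). Ifih1 came nearest, with 0.55 ± 0.25 more log2 units in AcP than in CD25 neurons (adjusted p = 0.576) and 0.56 ± 0.25 more in AcP+AcPb than in AcPb neurons (adjusted p = 0.983). By the same tests the response of the brighter Gbp2 probe set was larger by 4.34 in AcP than in CD25 neurons and by 3.70 in AcP+AcPb than in AcPb neurons. Not every Gbp probe set was called. Gbp3 was called between AcP and CD25 neurons (1.96) but not between AcP+AcPb and AcPb neurons (1.03, adjusted p = 0.796 by limma). The dimmer Gbp7 probe set was called in neither (adjusted p = 0.209 and 0.801).

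Genes around the members in the interferon pathway were read against the 0.302% of all probe sets called higher in AcP and the 0.217% in AcP+AcPb neurons, and their lists were chosen with results of these data known. Of 13 tested probe sets for RNA and DNA sensors, 0 were called in AcP or AcP+AcPb neurons. The kinase Tbk1 had 774 ± 43.4 units after IL-1b in AcP neurons, against 707 ± 40.3 in controls (SD, n = 3 each), and the RNA sensor Ddx58 had 194 ± 48.5 against 178 ± 70.2 in controls. The adaptor Mavs had 73.1 ± 4.30 units after IL-1b, against 93.4 ± 17.9 in controls. Of 30 for interferons, their receptors, Jak and Stat genes and Irf factors, 2 rose in AcP neurons and 0 were called in AcP+AcPb neurons. They were the transcription factor Irf1, at 294 ± 8.23 after IL-1b against 83.7 ± 21.2 in controls (1.66 ± 0.31), and the cytokine signalling inhibitor Socs3, by 1.38 ± 0.26 on 1 of its 3 probe sets. Each kept its call in 14 of 20 alternatives: both lost it with array weights and without AcP control 1 or 2 or IL-1b array 1 or 2, Irf1 also without IL-1b array 3 and Socs3 also with only the 6 arrays compared (adjusted p up to 0.218). In AcP+AcPb neurons the log2 value of Irf1 was 1.44 ± 0.31 (adjusted p = 0.0658).

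Of 23 probe sets of other type I interferon targets, 1 rose in AcP neurons and 0 in AcP+AcPb neurons. It was Parp9, an ADP-ribosyltransferase, at 87.5 ± 3.73 units after IL-1b against 50.9 ± 10.5 in AcP controls (0.64 ± 0.14, adjusted p = 0.0455). Parp9 kept that call in 8 of 19 alternatives and lost it without any 1 of these 6 arrays except control 2 (adjusted p up to 0.425). Of 4 for immunity-related GTPases, 1 rose in each of these arms: Irgm1, a regulator of that family, by 1.30 ± 0.12 in AcP and 0.73 ± 0.12 in AcP+AcPb neurons. Irgm1 lost its call with only the 6 arrays compared in each arm, and in AcP+AcPb neurons also with the code blocked and without control 1 or IL-1b array 2 or 3 (adjusted p up to 0.372). Among targets of NF-kB, 9 of 12 probe sets rose in AcP and 8 of 12 in AcP+AcPb neurons. Cxcl10, a chemokine also induced by interferon, rose by 6.50 ± 0.32 and 5.22 ± 0.32.

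Without IL-1b, several members were lower in receptor-bearing neurons than in CD25 neurons, with Ifit2 the lowest of the 6 in AcP and AcP+AcPb neurons and Ifih1 in AcPb neurons. Ifit2 had 43.7, 44.1 and 62.9 units in AcP controls, against 119, 107 and 86.2 in CD25 controls. It had 44.9, 45.5 and 61.8 units in AcP+AcPb controls and 64.1, 63.6 and 70.5 in AcPb controls. Every array of the 3 arms was below every CD25 control array. The log2 difference from CD25 was -0.86 ± 0.16 in AcP (adjusted p = 0.00146 by limma), -0.85 ± 0.16 in AcP+AcPb (adjusted p = 0.0016) and -0.54 ± 0.16 in AcPb neurons (adjusted p = 0.0597). With only the 6 arrays compared in the fit, the AcP call was lost (adjusted p = 0.0706).

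Usp18 was lower in AcP controls, at 18.1, 25.7 and 31.9 units, against 37.6, 56.2 and 55.9 in CD25 controls (-0.68 ± 0.19, adjusted p = 0.0305). Usp18 lost that call without CD25 control 2 or 3, without AcP control 1 or 2, with array weights and with only these 6 arrays, at adjusted p-values of 0.0709 to 0.162. Ifih1 had 13.1, 24.1 and 16.1 units in AcPb controls, against 40.3, 39.9 and 36.8 in CD25 controls (-0.72 ± 0.18, adjusted p = 0.0271). It had 24.6, 18.5 and 21.5 units in AcP+AcPb controls, for a difference of -0.55 ± 0.18 (adjusted p = 0.0474). The Ifih1 groups did not overlap. Ifih1 was above the array's 40th percentile on 10 of 24 arrays and below it on every AcPb and AcP+AcPb control array. Both differences thus set dim values beside values not far above that cut. Leaving out any 1 CD25 control ended both Ifih1 calls (adjusted p = 0.0667 to 0.112), as did leaving out AcPb control 1 or 3 or any 1 AcP+AcPb control. The AcPb call was lost with only the 6 arrays compared (adjusted p = 0.0507), and the AcP+AcPb call with 4 added, without the dim filter, with an intensity trend or with replicate number as a block (adjusted p = 0.0535 to 0.0761). Oasl2 (log2 differences of -0.05, -0.55 and -0.18 in AcP, AcP+AcPb and AcPb neurons) and both Rsad2 probe sets were not called.

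**Figure D4:**
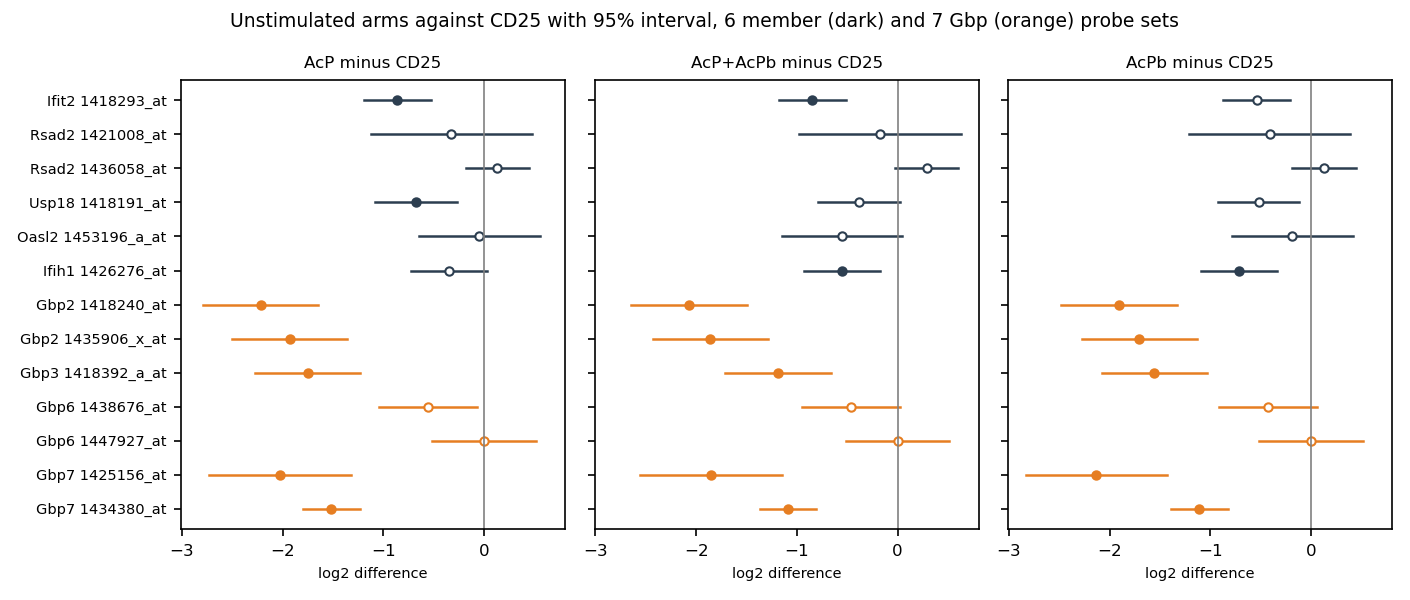
Log2 difference (x axis) of unstimulated AcP, AcP+AcPb and AcPb neurons from unstimulated CD25 neurons for 6 member probe sets (dark, upper rows) and 7 Gbp probe sets (orange, lower rows), with bars for the 95% interval and filled points for an adjusted p under 0.05. Ifit2 lies at -0.86, -0.85 and -0.54, and the bright Rsad2 probe set lies right of 0 in all 3 panels.

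Called lower than in CD25 neurons were thus 2 of 6 members in AcP neurons, beside 6.13% of all probe sets, 2 of 6 in AcP+AcPb (8.92% of all) and 1 of 6 in AcPb neurons (3.42% of all). Of the 7 Gbp probe sets, the 5 of Gbp2, Gbp3 and Gbp7 were lower in each of the 3 arms. The 2 of Gbp6 were not called, and 1 of these was below 0 on all control arrays, so it could not be. Without overlap and lower were 4 of 6 members in AcP neurons (12.6% of all probe sets) and 3 of 6 in AcPb neurons (16% of all). The 4 included the dimmer tested Rsad2 probe set (-0.32, adjusted p = 0.641 by limma), while the bright one differed by 0.13. AcP+AcPb neurons had 3 of 6 lower without overlap (20.5% of all), and the bright Rsad2 probe set was higher without overlap (18.3% of all), at 159.8, 194 and 168 units, against 129, 145 and 143 in CD25 controls. These 3 comparisons share the CD25 control arrays, and no AcP+AcPb array shared an array code with an array of another arm, so arm and code cannot be told apart there. Between AcP+AcPb and AcP controls 0 of 6 members were called (0.181% of all).

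Some other interferon genes differed from CD25 in the same comparisons. The list of interferons, their receptors, Jak and Stat genes and Irf factors had 30 tested probe sets. Of these, 6 were called lower in AcP, 7 in AcP+AcPb and 3 in AcPb controls (6.13%, 8.92% and 3.42% of all). The median log2 differences of the 30 were -0.17, -0.28 and -0.15, and Socs3, Irf1 and Irf9 below are from the called ones. Socs3, on the probe set called after IL-1b, differed by -3.10 in AcP, -2.78 in AcP+AcPb and -2.90 in AcPb controls, called in every alternative. Another Socs3 probe set kept its AcP call in 11 of 18 alternatives and its AcP+AcPb call in 12 of 17. It was not called in AcPb controls. Irf1 was also lower, by -1.43 in AcP and -1.26 in AcP+AcPb controls, and was not called in AcPb controls. The second Irf1 call was lost without CD25 control 2 or AcP+AcPb control 1 (adjusted p up to 0.052 by limma). Irf9, the DNA-binding part of the interferon complex, had 75.8 ± 3.26 units in AcP controls, against 169 ± 23.7 in CD25 controls (-1.01 ± 0.10), and was also lower in AcP+AcPb (-0.76 ± 0.10) and AcPb neurons (-0.82 ± 0.10). Ifitm3, a membrane protein that blocks viral entry, had 293 ± 63.3 units in AcP controls, against 1159.5 ± 143 in CD25 controls. Of 23 other interferon target probe sets, 6 were lower in AcP, 4 in AcP+AcPb and 4 in AcPb neurons, beside 6.13%, 8.92% and 3.42% of all probe sets. Higher in AcP+AcPb neurons was 1 of the 23, Cmpk2, a mitochondrial nucleotide kinase gene beside Rsad2 in the genome (0.45 ± 0.13). Of all 30468 probe sets 4347 were called in that comparison, 2718 of them lower, so the 1 higher call is given as a description. Cmpk2 kept that call in 13 of 18 alternatives and lost it without CD25 control 2 or 3 or AcP+AcPb control 1, among others (adjusted p up to 0.12). Lower values were not limited to the interferon lists. Of 12 probe sets for targets of NF-kB, 6 were called lower in AcP, 2 in AcP+AcPb and 5 in AcPb controls. In AcP+AcPb controls 1 of the 12 was called higher. Cxcl10 differed from CD25 by -2.94 in AcP, -1.69 in AcP+AcPb and -2.93 in AcPb controls. Irgm1 differed by -1.20, -0.54 and -0.92.

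Markers of other cells also differed from CD25 controls. Of all 30468 probe sets, 6.13% were called lower in AcP, 8.92% in AcP+AcPb and 3.42% in AcPb controls. Called in either direction were 3135, 4347 and 1400 of them, and short lists with few calls are to be read beside these. Of 17 neuron probe sets, 2 of 1 gene were called higher in AcP+AcPb controls and 0 were called in the other arms. Of 7 progenitor and dividing cell probe sets, 5 were called lower in AcP, 6 in AcP+AcPb and 4 in AcPb controls. The 4 progenitor and dividing cell markers summed to 2510.0 to 2813 units in AcP, 2318 to 2601 in AcP+AcPb and 2939.7 to 3070.1 in AcPb controls, against 3940.4 to 4174 in CD25 controls. Astrocyte markers went both ways: of 16 tested probe sets 3 were called higher and 5 lower in AcP, 2 higher and 1 lower in AcP+AcPb, and 0 higher and 4 lower in AcPb controls. Their sum was 14538 to 16248 units in AcP, 15781 to 17320 in AcP+AcPb and 14504 to 16013 in AcPb controls, against 12189 to 17104 in CD25 controls. Among them Aldoc and Slc1a2 were called higher in AcP and AcP+AcPb controls, and Gfap had 482 ± 178 units in AcP, 1360.2 ± 378 in AcP+AcPb and 568 ± 165 in AcPb controls, against 1936 ± 580 in CD25 controls on the brightest of its probe sets, and its AcP+AcPb value was not called (adjusted p = 0.271). Of 10 oligodendrocyte probe sets, 6 were called lower in AcP+AcPb controls, all of Mbp, a myelin protein, and 0 in the other arms. Their genes summed to 1089 to 1732 units in AcP, 586 to 1045 in AcP+AcPb and 1487 to 2016 in AcPb controls, against 1308 to 2424 in CD25 controls. Of 4 endothelial, mural and fibroblast probe sets, 1 was lower in AcP, 2 in AcP+AcPb and 0 in AcPb controls. The 7 microglia markers summed to 275 to 607 units in AcP, 219 to 268 in AcP+AcPb and 409 to 903 in AcPb controls, against 386 to 665 in CD25 controls, and none of their 5 tested probe sets was called. The part of these cells in the members' differences was not tested.

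The same arm comparison in IL-1b arrays was added after seeing the data. Ifit2 was again lower, at 40.4, 47.7 and 51.7 units in AcP and 31.6, 57.1 and 57.4 in AcP+AcPb neurons, against 109, 94.6 and 102 in CD25 neurons. The log2 differences were -0.91 ± 0.16 (adjusted p = 0.00115) and -0.89 ± 0.16 (adjusted p = 0.00156), and with only the 6 arrays compared the second was not called (adjusted p = 0.0759). In AcPb neurons Ifit2 averaged 81.3 ± 9.89, against 101.8 ± 7.33 in CD25 neurons, and was not called. Ifih1 averaged 35.6 ± 9.87 units in AcP and 39.4 ± 4.90 in AcP+AcPb neurons, against 29.5 ± 13.0 in CD25 neurons, and neither Ifih1 difference was called. The bright Rsad2 probe set lay the other way in AcP+AcPb neurons, at 205, 170.1 and 178 units, against 152, 139.7 and 100.3 in CD25 neurons, without overlap (16.1% of all probe sets lay higher without overlap). Its log2 difference of 0.46 ± 0.15 was not called (adjusted p = 0.0562), and it was called higher in 5 of 18 alternatives (adjusted p = 0.035 to 0.28). Called lower were 1 of 6 members in AcP (4.16% of all probe sets), 1 of 6 in AcP+AcPb (5.62% of all) and 0 of 6 in AcPb neurons (1.66% of all). With IL-1b the brighter Gbp2 probe set was higher than in CD25 neurons, by 2.12 ± 0.27 in AcP and 2.05 ± 0.27 in AcP+AcPb neurons. Gbp3 and both Gbp7 probe sets were not called in either arm. In AcP neurons they differed from CD25 by 0.21 ± 0.25 for Gbp3 and 0.165 ± 0.13 and -0.15 ± 0.33 for Gbp7 (adjusted p = 0.511 to 0.84 by limma).

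The 6 tested probe sets did not share 1 profile over the 8 groups. As a description over 8 group means, with no test, Ifit2 correlated at 0.64 with Usp18 and at -0.74 with the bright Rsad2 probe set, and the tested Rsad2 probe sets correlated at -0.04 with each other. Their averaged standardised profile was highest in CD25 controls (0.81), then in AcP+AcPb neurons with IL-1b (0.51) and CD25 neurons with IL-1b (0.42), and lowest in AcPb controls (-0.59). Of 25626 other probe sets with 1 symbol, those closest to this profile were Kctd18 (r of 0.99), Kdm6a (0.985), Phactr2 (0.982), Tjp1 (0.975), Rhoa (0.97), Cnn3 (0.967), 2310033P09Rik (0.962) and Cavin3 (0.961). The points are group means of shared arrays, so these values are given with no p.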

How the data were processed

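The labels place the 24 one-colour Affymetrix arrays in 8 groups of 3. The deposited values are linear intensities per probe set; per the labels the RNA was biotin-labelled, and how the authors summarised, background-corrected and scaled the intensities was not given in the sources used here. Of 45077 probe sets, 40 controls were left out. By the platform annotation 34945 probe sets have 1 gene symbol, 932 several and 9160 none.

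Values below 0 were set to 0, and log2(value + 16) was fitted with limma 3.58.1 in R 4.3.3, 1 mean per group over 24 arrays (16 residual and 1.94 prior degrees of freedom). P-values were Benjamini-Hochberg adjusted over 30468 probe sets in each comparison and called under 0.05. A probe set needed 3 arrays above the array's 40th percentile. An exact permutation test of 3 arrays against 3 cannot go below p = 0.1, so single probe sets were judged by limma. The test was checked on simulated data. Alternatives were other normalizations, added constants, filters, weights, blocks and left-out arrays.

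The members and all gene lists were chosen with earlier results of these data known. Named were all members, all Gbp probe sets, the genes of each other list called after IL-1b or else the 3 brightest, and the 8 probe sets most alike in profile. Irf9, Ifitm3 and Cmpk2 were named after their values were seen, and Cxcl10 stands for the called targets of NF-kB. Promoter windows came from RefSeq, build GRCm38.p6.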

Additional observations from a re-analysis of the deposited data

Results flagged for a closer look

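The tests of a difference between responses to IL-1b called 0 of the 6 members and the following genes of the lists set beside them, each given as a difference of log2 changes. AcP neurons exceeded CD25 neurons by 4.34 and 4.00 for the Gbp2 probe sets, 1.96 for Gbp3, 2.67 for Gbp6, 1.68 for Gbp7 and 1.31 for Irgm1. Among targets of NF-kB they exceeded CD25 neurons by 3.53 for Icam1, 3.29 for Nfkbiz, 3.34 for Ccl2 and 6.54 for Cxcl10, and by 0.89, 1.18, 1.57 and 1.55 for the Nfkbia probe sets. The Gbp6 values are a description, here and between AcP+AcPb and AcPb neurons below. That probe set passed the filter through IL-1b arrays of the AcP and AcP+AcPb arms alone and so had to differ. The other Gbp6 probe set was called in neither comparison (adjusted p = 0.158 and 0.216 by limma).

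AcP+AcPb neurons exceeded AcPb neurons by 3.70 and 3.29 for the Gbp2 probe sets, 2.63 for Gbp6 and 1.18 for Gbp7. Among targets of NF-kB they exceeded AcPb neurons by 4.85 for Cxcl10, 3.34 for Ccl2 and 2.50 for Nfkbiz, and by 0.64, 0.85, 1.11 and 1.04 for the Nfkbia probe sets. Over the alternatives the difference of the brighter Gbp2 probe set ran from 2.66 to 5.87 and that of Gbp6 from 1.24 to 4.48 between AcP and CD25 neurons, and from 2.39 to 4.56 and 1.23 to 4.42 between AcP+AcPb and AcPb neurons. Gbp3 kept its difference between AcP and CD25 neurons in 17 of 25 alternatives and lost it without CD25 control 1 or 3, AcP control 1 or 2 or AcP IL-1b array 2 or 3, with array weights and with only the arrays compared (adjusted p up to 0.125). With only the arrays compared Irgm1 lost its difference there (adjusted p = 0.0746), and Gbp6 and Gbp7 lost theirs between AcP+AcPb and AcPb neurons, Gbp7 also with the array code blocked (adjusted p up to 0.274). Groups of 3 arrays are too small for the search for single deviating arrays.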

How the results depend on the processing

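The count of members called stayed 0 in every IL-1b response, in every response difference and between unstimulated AcP+AcPb and AcP neurons under every alternative run. With the 60th percentile filter only the bright Rsad2 probe set was tested, so a count of 0 there says nothing of the other members. Counts against CD25 moved. For unstimulated AcP neurons (2 members) the count was 0 with the 60th percentile filter, which tests fewer members, 1 with array weights, 0 with only the arrays compared and 1 to 2 without single arrays. For AcPb (1 member) it was 2 with 64 added, 0 with the 60th percentile filter, 2 with 1 probe set per gene, 2 with array weights, 0 with only the arrays compared and 0 to 1 without single arrays. For AcP+AcPb (2 members) it was 1 with 4 added, 1 without the dim filter, 0 with the 60th percentile filter, 1 with the intensity trend, and 1 without any single array. In IL-1b arrays, added after seeing the data, AcP (1 member) had 0 with the 60th percentile filter and 2 with 1 probe set per gene or array weights. AcP+AcPb (1 member) had 2 with 64 added, 1 probe set per gene or the intensity trend, the added call being the bright Rsad2 probe set, higher than in CD25, 0 with only the arrays compared and 1 to 2 without single arrays. These counts take calls in either direction. With the 60th percentile filter Ifit2 was not tested, so a count there does not rest on it. Same-numbered arrays deviated together at correlations of -0.12 to 0.19. In the CD25 arm the array medians went together by number, which they did not in the other arms. They were 57.91, 60.14 and 58.53 in CD25 controls and 57.88, 60.12 and 58.52 with IL-1b. With 3 arrays per group these values cannot settle whether the numbers pair the arrays, and the main fit did not pair them. With replicate number as a block the count was 1 for unstimulated AcP+AcPb and 2 for IL-1b-stimulated AcP neurons against CD25, and the block moved no other member count. The cause of these moves was otherwise not tested. Of 1626 single member values under an alternative, 0 reversed as calls, 24 lost and 11 gained a call. Counts over all probe sets were 48 to 131 (AcP response, 123), 8 to 112 (AcP+AcPb, 78), 1 to 185 (AcPb, 3) and 0 to 9 (CD25, 0), and 65 to 322, 42 to 143, 1 to 14 and 0 to 2 without single arrays. Differences between responses gave 35 to 62 for AcP minus CD25 (58), 0 to 2 for AcP+AcPb minus AcP (1) and 18 to 32 for AcP+AcPb minus AcPb (28), and 46 to 276, 1 to 7 and 23 to 36 without single arrays. Unstimulated arms against CD25 gave 569 to 3405 for AcP (3135), 2664 to 5770 for AcP+AcPb (4347) and 947 to 2994 for AcPb (1400), and 2017 to 5262, 2271 to 3762 and 839 to 974 without single arrays. AcP+AcPb against AcP gave 1 to 68 (55), and 10 to 271 without single arrays. IL-1b-stimulated arms against CD25 gave 706 to 3131 for AcP (2467), 457 to 3981 for AcP+AcPb (3265) and 60 to 988 for AcPb (655), and 1422 to 2419, 1478 to 3122 and 304 to 685 without single arrays. The dim signal of 5 member probe sets and the number of arrays limit what could be detected.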
